A study of Mus musculus with 6 samples.

Results

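Genes of the hair cell bundle were followed here in the cochlea of C57BL/6 mice at a young and an old age. They were Ush1c, Ush1g, Adgrv1, Whrn, Clrn1, Myo7a, Myo6, Espn and Eps8, which were taken by name as Usher proteins, unconventional myosins and actin bundlers of the stereocilia. All 9 were found among the 25823 genes of the table, and all 9 passed the filter on low values. The young mice were 1 month old by the sample labels and the old mice were 12 months old, with 3 samples per age. Each sample pooled 3 mice. The tissue was the cochlear basilar membrane, taken as a whole, and both groups were of the C57BL/6 strain, which loses hearing early in adult life. The labels give no treatment, engineered allele or sex, and a young age of 4 weeks stands in the methods of the study.

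Stereocilia are stiff protrusions filled with bundled actin, and they stand in rows of graded height on each hair cell. Tip links join the rows and pull on the mechanotransduction channel when the bundle is deflected. The Usher proteins build the links and anchor them to the actin core, the myosins carry cargo along the core or hold the membrane at its base, and bundling and capping proteins set its width and length. Loss of any of these genes impairs hearing in mice and in people.

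Whole tissue gives 1 value per gene for all cells together. It does not tell which cells, hair cells or others, the RNA of a member came from. Fewer hair cells and less RNA per hair cell cannot be told apart in it either. The values are FPKM (fragments per kilobase of transcript, scaled to the depth of the sample), summed over the transcripts of a gene. The depth that the spacing of low values gave was 12570000 to 15670000 fragments per sample. Of 15 hair cell markers, 14 were abundant enough for the test, and Atoh1 had means below 0.1 FPKM in both groups. The summed level of the 15 hair cell markers was 153 to 258 FPKM in young and 106 to 122 FPKM in old samples. That of 15 supporting cell markers was 3639 to 4561 FPKM over all samples. In such sums the most abundant genes weigh most. Ocm, a hair cell marker, had means of 135 FPKM in young and 58.4 FPKM in old mice. S100a1, a supporting cell marker, had means of 2334 FPKM in young and 2670 FPKM in old mice. Other tissues differed between the ages as well. The sum of 10 macrophage markers was 129 to 199 FPKM in young and 703 to 780 FPKM in old samples, with 9 of the 10 genes higher in old mice by limma. The sum of 10 neuron markers was 536 to 1058 FPKM in young and 371 to 405 FPKM in old samples. By limma 5 of the 10 were lower. The log2 change was below 0 for 8 of the 10 and above 0 for 2. The sum of 8 bone markers was 83.0 to 334 FPKM in young and 63.7 to 84.0 FPKM in old samples, with 2 of the 8 lower by limma. Their log2 change was below 0 for 7 of the 8 and above 0 for 1. For comparison, 5.41% of all genes tested were higher and 3.68% were lower by limma. Skeletal muscle markers summed to 20.2 FPKM in old replicate 1 and to at most 4.09 FPKM in any other sample. What these shifts contribute to the differences described here was not tested.

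By level, Myo6 stood far above the other members and Ush1g and Adgrv1 stood at the bottom. In young mice the order by mean FPKM was Myo6, Ush1c, Clrn1, Eps8, Myo7a, Whrn, Espn, Adgrv1 and Ush1g. Neighbours in this order overlapped between samples from Clrn1 to Eps8, from Eps8 to Myo7a and from Myo7a to Whrn. All other neighbours were apart. Ush1c and Clrn1 were so only narrowly, with a lowest Ush1c of 10.35 FPKM and a highest Clrn1 of 10.27 FPKM. In old mice the order was Myo6, Ush1c, Eps8, Myo7a, Espn, Whrn, Clrn1, Adgrv1 and Ush1g. Clrn1 thus stood in place 3 in young and in place 7 in old mice. In the old samples the ranges of Eps8 and Myo7a, of Espn and Whrn, of Whrn and Clrn1, and of Adgrv1 and Ush1g overlapped.

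**Figure D1:**
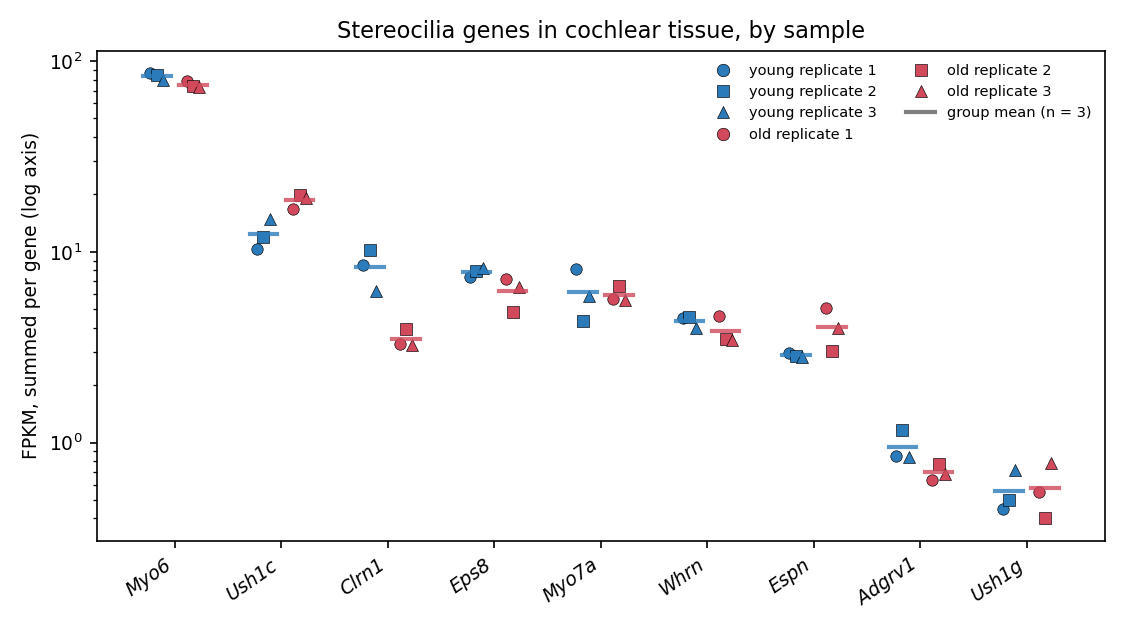
Level of each member gene in every sample, as FPKM summed over transcripts on a log axis. Points are the 3 young (blue) and 3 old (red) samples and lines are group means; the old samples lie above the young ones for Ush1c and Espn and below them for Clrn1, Eps8, Myo6 and Adgrv1.

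Between the ages, 1 member was higher in old mice, Ush1c, and 1 was lower, Clrn1, with limma on log2(FPKM + 0.1) and p adjusted over all 19649 genes tested. The other 7 did not pass the threshold of 0.05. Of all genes, 9.09% passed in either direction, 5.41% as higher and 3.68% as lower, so that 1 of 9 members in each direction is near the background. An unadjusted p below 0.05 was found for 3 members, where 27.5% of all genes had one. The ages did not overlap for 6 of 9 members, with the old samples higher for 2 and lower for 4. Over all genes this share was 33.5%, with 17.5% higher and 16.0% lower. The median log2 change of the members was -0.16, and that of all genes was 0.0087. Every log2 change is old minus young.

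Ush1c encodes harmonin, a scaffold with PDZ domains that ties the upper end of the tip link to the actin core. The gene (ENSMUSG00000030838) lies at chr7:46195350-46238503 on the minus strand of GRCm38. Its level was 10.3, 11.9 and 14.8 FPKM in young replicates 1, 2 and 3 and 16.8, 19.8 and 19.2 FPKM in old replicates 1, 2 and 3. The groups did not overlap, and the nearest samples were young replicate 3 and old replicate 1. The mean rose from 12.4 ± 2.27 to 18.6 ± 1.58 FPKM (SD, n = 3), a ratio of 1.51. The log2 change was 0.60 (SE 0.14, 95% interval 0.26 to 0.93, limma adjusted p = 0.0450). The call held without young replicate 3 (adjusted p = 0.0297) and was lost without any of the other 5 samples, where the adjusted p was 0.105 to 0.165. It was also lost with no variance trend (adjusted p = 0.105), with no filter on low values (0.128) and with the most abundant transcript in place of the sum (0.0529).

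Most of the level of Ush1c came from a short transcript. The transcript named Ush1c-202, with 21 exons and 1644 coding bases, held 88.5% ± 3.13 of the level of the gene in young and 90.5% ± 3.06 in old mice (SD, n = 3). Harmonin is made in short and long forms, and the long forms carry an additional region that binds actin. Of the Ush1c transcripts above 0.5 FPKM, the longest coding sequence was that of Ush1c-201, with 27 exons and 2730 coding bases. It holds 1148 coding bases in 8 blocks that Ush1c-202 lacks. Ush1c-202 has 1 coding block that Ush1c-201 lacks, the exon at chr7:46216018-46216079. That exon sets Ush1c-202 apart from Ush1c-201, and the other Ush1c transcripts were not compared for it. It is shown on the minus strand in capitals, with 15 bases of the neighbouring exons in lower case.
Ush1c-202: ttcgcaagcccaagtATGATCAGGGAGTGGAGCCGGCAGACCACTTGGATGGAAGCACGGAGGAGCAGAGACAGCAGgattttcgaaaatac

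Ush1c-202 measured 9.06, 10.97 and 12.8 FPKM in young and 14.6, 18.2 and 17.8 FPKM in old replicates. These groups did not overlap either, and the log2 change was 0.63 (95% interval 0.26 to 1.00, limma adjusted p = 0.108 over all transcripts). The long Ush1c-201 measured 1.13, 0.949 and 1.81 FPKM in young and 1.91, 1.60 and 0.956 FPKM in old replicates. Its groups overlapped over nearly their whole range, with a log2 change of 0.18 (95% interval -0.77 to 1.14). The share of Ush1c-202 differed by less than the spread between samples.

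Clrn1 encodes clarin-1, a small protein with several membrane spans that hair cells need to keep their bundles and synapses. The gene (ENSMUSG00000043850) lies at chr3:58844028-58885340 on the minus strand. Its level was 8.54, 10.3 and 6.24 FPKM in young and 3.27, 3.96 and 3.26 FPKM in old replicates. Even the lowest young sample stood above the highest old sample. The mean was 8.35 ± 2.03 FPKM in young and 3.50 ± 0.399 FPKM in old mice (SD, n = 3), a ratio of old to young of 0.419. The log2 change was -1.21 (SE 0.20, 95% interval -1.68 to -0.74, limma adjusted p = 0.0210). This call held without young replicate 3 (adjusted p = 0.0178) and was lost without any of the other 5 samples, where the adjusted p was 0.0735 to 0.0936. The adjusted p was 0.0584 with no variance trend, 0.0764 with no filter on low values and 0.0649 with the most abundant transcript in place of the sum. The estimated number of fragments behind each value was 143 to 248 in young and 78.9 to 108 in old samples.

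The level of Clrn1 was split over 3 transcripts that differ in the middle of the coding sequence. Clrn1-203 joins the first coding exon straight to the last, Clrn1-201 has 1 exon between them (chr3:58864972-58865151), and Clrn1-202 has an additional exon before that one (chr3:58872701-58872754). The coding lengths were 516, 696 and 750 bases. The sequences tell these forms apart, and are shown on the minus strand of GRCm38, with the exon that sets each form apart from the next shorter one in capitals and 15 bases on each side in lower case. Clrn1-203 has no bases of its own, so its junction is shown in lower case only.
Clrn1-203: ctttccggttctcatgctcctgtggctgtc
Clrn1-201: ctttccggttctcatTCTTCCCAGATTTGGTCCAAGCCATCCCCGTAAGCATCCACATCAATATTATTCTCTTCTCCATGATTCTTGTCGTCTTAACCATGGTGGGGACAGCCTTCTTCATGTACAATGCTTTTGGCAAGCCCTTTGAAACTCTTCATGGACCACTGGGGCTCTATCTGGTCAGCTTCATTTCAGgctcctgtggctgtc
Clrn1-202: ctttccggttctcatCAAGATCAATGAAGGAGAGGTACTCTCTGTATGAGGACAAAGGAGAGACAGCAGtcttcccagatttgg

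All 3 Clrn1 transcripts lay lower in each old sample than in any young sample. Clrn1-201 measured 3.88, 5.10 and 2.36 FPKM in young and 1.22, 1.90 and 1.46 FPKM in old replicates (log2 change -1.21, limma adjusted p = 0.143). Clrn1-202 measured 2.58, 4.35 and 2.80 FPKM in young and 1.65, 1.61 and 1.80 FPKM in old replicates (log2 change -0.87, adjusted p = 0.171). Clrn1-203 measured 2.07, 0.830 and 1.08 FPKM in young and 0.405, 0.449 and 0 FPKM in old replicates (log2 change -2.14, adjusted p = 0.244). None of the 3 passed the threshold over all transcripts, and their shares of the gene overlapped between the ages. The mean share of Clrn1-201 was 44.3% in young and 43.3% in old mice.

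Ush1g, Whrn and Adgrv1 did not pass the test, and Ush1g and Adgrv1 were the lowest of the members. Ush1g encodes SANS, which binds harmonin and myosin VIIa at the tip link. It measured 0.448, 0.502 and 0.716 FPKM in young and 0.553, 0.400 and 0.785 FPKM in old replicates. Each age held both low and high samples, and the log2 change was 0.03 with a 95% interval from -0.82 to 0.89 (limma adjusted p = 0.966). The gene had an estimated 17.9 to 32.1 fragments per sample, and a change in either direction within this interval is not excluded.

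Whrn encodes whirlin, a PDZ scaffold of the ankle links and of the stereocilia tips. It measured 4.48, 4.54 and 4.003 FPKM in young and 4.63, 3.49 and 3.43 FPKM in old replicates. The highest value of all 6 was an old sample, and the other two old samples were the lowest. The log2 change was -0.18 (95% interval -0.57 to 0.21, limma adjusted p = 0.519). It ranged from -0.32 without old replicate 1 to -0.11 without old replicate 3, and was -0.62 with the most abundant transcript, Whrn-201, in place of the sum.

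Adgrv1 encodes a very large adhesion receptor that forms the ankle links. It measured 0.850, 1.16 and 0.841 FPKM in young and 0.637, 0.767 and 0.687 FPKM in old replicates. Each old sample was below each young sample, and the log2 change was -0.39 (95% interval -1.04 to 0.26, adjusted p = 0.409). It was -0.25 without young replicate 2 and -0.20 with a pseudocount of 1. With only the most abundant transcript, Adgrv1-206, the log2 change was 0.23. The full-length Adgrv1-201, with 90 exons and 18894 coding bases, measured 0.195, 0.182 and 0.230 FPKM in young and 0.159, 0.105 and 0.0607 FPKM in old replicates. An antisense gene, 9330111N05Rik, overlaps the end of Adgrv1 and measured 0.434 to 0.630 FPKM in young and 0.882 to 1.21 FPKM in old samples. The libraries kept the strand, but the strand setting of the counting was not given in the sources used here.

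The myosins showed small differences or none that stood out from the spread. Myo7a encodes the motor of the upper tip link, which binds harmonin and SANS. It measured 8.15, 4.36 and 5.89 FPKM in young and 5.66, 6.62 and 5.61 FPKM in old replicates. The old samples lay inside the range of the young ones, and the log2 change was 0.00 (95% interval -0.52 to 0.52, limma adjusted p = 0.997). A change of up to 0.52 on the log2 scale in either direction is within this interval.

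Myo6 encodes the myosin that moves toward the base of the stereocilia and holds the membrane there. It measured 86.5, 84.2 and 79.5 FPKM in young and 78.2, 73.7 and 72.8 FPKM in old replicates. Young and old samples did not overlap, but young replicate 3 and old replicate 1 nearly met. The log2 change was -0.16 (SE 0.06, 95% interval -0.30 to -0.01), with an unadjusted p of 0.0436 by limma that became 0.168 after adjustment over all genes. With 6772 to 7904 estimated fragments per sample, Myo6 was the most precisely measured member, and its SD within a group was 3.81 to 4.27% of the mean. Its transcripts Myo6-201 and Myo6-203 held 45.7% and 34.8% of the level in young and 47.1% and 35.8% in old mice. The next, Myo6-212, measured 14.3, 13.2 and 13.3 FPKM in young and 7.55, 11.6 and 12.6 FPKM in old replicates. Its groups did not overlap, with a log2 change of -0.39 (95% interval -0.86 to 0.08, limma adjusted p = 0.365), while its share of the gene overlapped.

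Among the genes of the actin core, Espn encodes espin, which bundles actin filaments in parallel. It measured 2.96, 2.84 and 2.82 FPKM in young and 5.05, 3.02 and 4.002 FPKM in old replicates. The young samples were nearly equal, while the old samples spread from just above them to well above them. The log2 change was 0.44 (95% interval -0.04 to 0.92, limma adjusted p = 0.213). The highest value was in old replicate 1, the sample in which the skeletal muscle markers were highest. What muscle content contributes to the level of Espn was not tested. Without old replicate 1 the log2 change of Espn was 0.27 (limma adjusted p = 0.433). With the most abundant transcript in place of the sum it was -0.14.

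Eps8 encodes a protein that caps and bundles actin at the stereocilia tips and is needed for their elongation. It measured 7.35, 7.91 and 8.18 FPKM in young and 7.21, 4.84 and 6.54 FPKM in old replicates. Old replicate 1 came close to the young samples and old replicate 2 was the farthest from them. The log2 change was -0.35 (95% interval -0.73 to 0.03, adjusted p = 0.217), and it was -0.18 without old replicate 2. With the most abundant transcript in place of the sum it was 0.10.

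**Figure D2:**
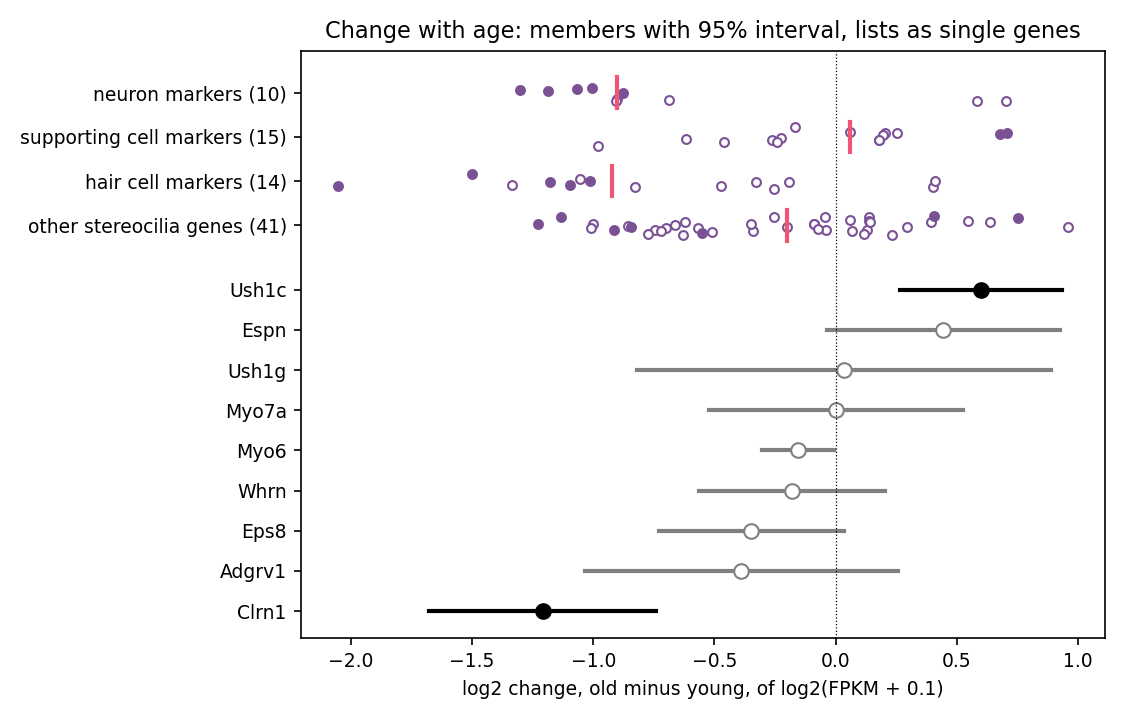
Log2 change of each member with its 95% interval from limma (filled where the adjusted p is below 0.05), and single genes of 4 lists as points with the list median as a vertical line. Ush1c lies at 0.60 and Clrn1 at -1.21, with the other 7 members between -0.39 and 0.44; the list medians are -0.20 for other stereocilia genes, -0.92 for hair cell markers, 0.06 for supporting cell markers and -0.90 for neuron markers.

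The share that each transcript held of its gene was compared between the ages as well. The 9 genes had 60 transcripts in the table, of which 38 were abundant enough for the test. None passed the threshold, against 0.748% of all transcripts tested with limma, and 5 of the 38 had an unadjusted p below 0.05, against 17.0% of all transcripts. The groups did not overlap for 8 of the 38, with 2 higher and 6 lower in old mice, where the share over all transcripts was 24.6%, with 12.6% higher and 12.0% lower. As a share of the gene, 20 transcripts held at least 10% and were compared, and the groups did not overlap for 3, with 1 share higher and 2 lower in old mice. That compares with 14.6% of all transcripts compared in this way, 7.08% higher and 7.54% lower, so that the count itself is near the background. The smallest p that the exact permutation test can give here is 0.1, two-sided.

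Those 3 transcripts belonged to Espn, Eps8 and Whrn. Espn-207, a short form with 855 coding bases, held 65.6, 62.6 and 64.5% of the gene in young and 34.0, 47.8 and 46.0% in old replicates (exact permutation p = 0.1). Its own level overlapped between the ages, at 1.84 ± 0.0847 FPKM in young and 1.67 ± 0.204 FPKM in old mice (SD, n = 3). The longer Espn-220 measured 0.536, 0.339 and 0.452 FPKM in young and 0.866, 0.741 and 0.778 FPKM in old replicates, so that all old samples were higher (log2 change 0.74, limma adjusted p = 0.423). Other forms of Espn moved unevenly. Espn-213, also long, measured 0.482, 0.333 and 0.367 FPKM in young and 0.806, 0.693 and 0.298 FPKM in old replicates. Espn-202, with 759 coding bases, was at 0, 0 and 0.179 FPKM in young and 1.35, 0 and 0.484 FPKM in old replicates. It held 26.8% of the gene in old replicate 1, the sample with the lowest share of Espn-207. A shift between short and long forms is thus not shown by these values.

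Eps8-201 held 57.8, 49.4 and 48.4% of Eps8 in young and 77.8, 76.3 and 60.0% in old replicates (exact permutation p = 0.1). It has the same coding length, 2463 bases, as Eps8-202 and Eps8-203, so that the forms have coding sequences of equal length. The level of Eps8-201 itself overlapped between the ages, with means of 4.04 and 4.41 FPKM, and that of Eps8-203 was 1.12, 1.70 and 2.13 FPKM in young and 0.0218, 0.654 and 1.596 FPKM in old replicates.

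Whrn-202 held 24.9, 14.2 and 23.8% of Whrn in young and 4.19, 10.9 and 7.47% in old replicates (exact permutation p = 0.1). It measured 1.12, 0.646 and 0.952 FPKM in young and 0.194, 0.381 and 0.257 FPKM in old replicates, with a log2 change of -1.41 (95% interval -2.57 to -0.26, limma adjusted p = 0.209). This form has 7 exons and 1713 coding bases, and its coding sequence closes with 84 bases at chr4:63431766-63431849 that the longer Whrn-201 lacks. That end sets Whrn-202, the whirlin form with the lower share, apart from Whrn-201. It is given on the minus strand with the bases that Whrn-201 lacks in capitals after 15 shared bases.
Whrn-202: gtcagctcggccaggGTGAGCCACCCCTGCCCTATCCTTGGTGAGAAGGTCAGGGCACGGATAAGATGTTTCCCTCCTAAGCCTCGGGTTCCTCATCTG
The forms Whrn-201 and Whrn-206 differ by 3 coding bases only, CAG, so that the division of reads between them is uncertain.

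**Figure D3:**
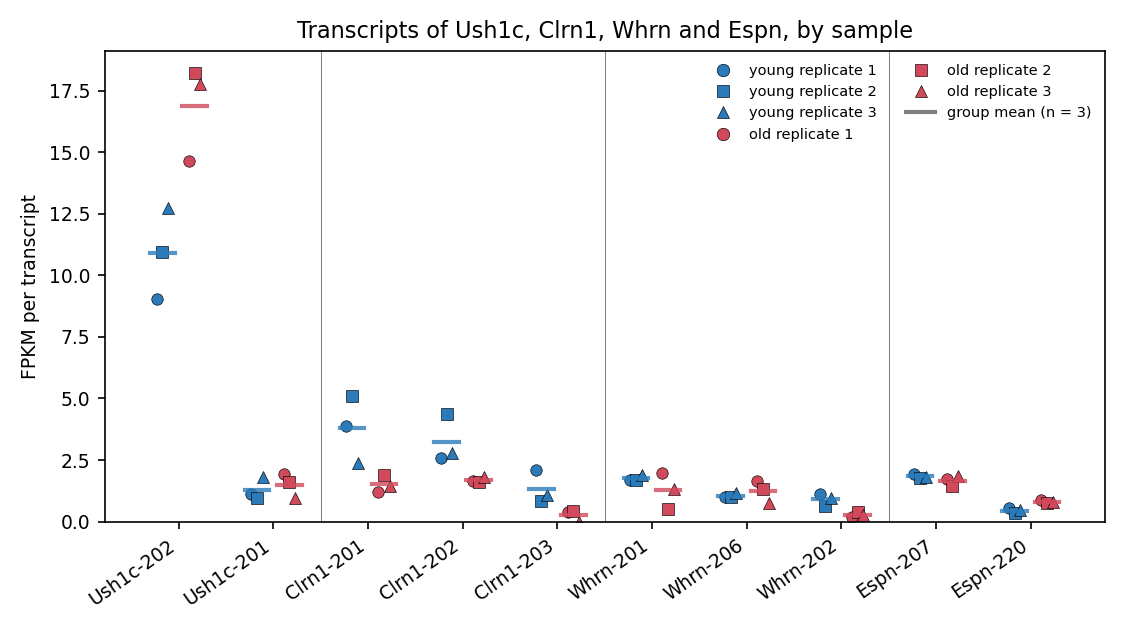
Level of the transcripts of Ush1c, Clrn1, Whrn and Espn in every sample, in FPKM per transcript on an axis that starts at 0. Points are the 3 young (blue) and 3 old (red) samples and lines are group means; the old samples lie above the young ones for Ush1c-202 and Espn-220, and below them for the 3 Clrn1 transcripts and Whrn-202.

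The other genes of the stereocilia were taken as 5 lists with 43 genes, of which 41 were tested. At the older age 2 of them were higher and 5 were lower, and their median log2 change was -0.20. Over all genes tested, 5.41% were higher and 3.68% were lower. Among the tip link and Usher partners, 3 genes were tested. Cdh23, which forms the upper part of the tip link that harmonin anchors, measured 1.45, 1.53 and 1.61 FPKM in young and 0.541, 0.647 and 0.603 FPKM in old replicates. It was lower in every old sample (log2 change -1.23, limma adjusted p = 0.0283). Pcdh15, the lower part of the tip link, measured 3.74, 2.84 and 4.41 FPKM in young and 6.74, 4.75 and 4.68 FPKM in old replicates (log2 change 0.55, adjusted p = 0.159). The third, Pdzd7, a PDZ scaffold of the ankle links, had means of 2.21 and 2.48 FPKM (adjusted p = 0.772).

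In the mechanotransduction complex, 2 of 5 genes tested were lower and 0 were higher. They were Lhfpl5, with means of 9.96 and 4.55 FPKM (log2 change -1.13, adjusted p = 0.0297), and Cib2, with means of 29.0 and 19.8 FPKM (log2 change -0.55, adjusted p = 0.0155). Both encode parts of the transduction complex at the lower end of the tip link. In the tip complex and the other stereocilia myosins, Gpsm2 was lower (4.57 against 2.37 FPKM, log2 change -0.92, adjusted p = 0.0265) and the other 10 genes did not pass. Gpsm2 works with whirlin and Eps8 at the tips of the tallest row.

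Of 13 genes of the stereocilia base, taper and membrane links, 2 were higher and 1 was lower by limma. The log2 change was below 0 for 10 of the 13 and above 0 for 3, with a median of -0.57. Ezr, which encodes the membrane to actin linker ezrin, had means of 38.3 and 50.7 FPKM (log2 change 0.41, adjusted p = 0.0215). Tprn, which encodes the taper protein taperin, had means of 9.17 and 15.2 FPKM (log2 change 0.75, adjusted p = 0.0425). Homer2, a scaffold, was lower, with means of 6.49 and 3.57 FPKM (log2 change -0.84, adjusted p = 0.0137). Of the 9 genes of the actin core and other bundlers, 0 passed by limma. The most abundant of them, Actb and Actg1, had means of 891 and 406 FPKM in young 965 and 497 FPKM in old mice. Of 6 paralogues of the members, 2 were tested, and Clrn2, the relative of Clrn1 that hair cell bundles also need, was lower with means of 2.55 and 0.976 FPKM (log2 change -1.28, adjusted p = 0.0413).

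Beside the members, 5 of 14 hair cell markers were lower at the older age and 0 were higher, and the median log2 change was -0.92. They were Slc26a5, Ocm, Chrna9, Gfi1 and Rbm24, with log2 changes from -1.02 to -2.05. Of 15 supporting cell markers, Otog and Otoa were higher and 0 were lower by limma, with a median of 0.06. The log2 change was above 0 for 8 of the 15 and below 0 for 7. Of all genes tested, 5.41% were higher and 3.68% were lower by limma. Otog, which encodes a protein of the tectorial membrane, is also the next gene before the start of Ush1c, with 2483 bases between them on the opposite strand. It measured 11.1, 10.03 and 11.7 FPKM in young and 22.0, 17.2 and 15.1 FPKM in old replicates (log2 change 0.71, adjusted p = 0.0326).

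Each member was then set against the hair cell markers within a sample, as its log2 level minus the mean log2 level of the 14 markers. The mean of the markers was 2.11 ± 0.282 in young and 1.36 ± 0.0463 in old mice on the log2(FPKM + 0.1) scale (SD, n = 3), and the old samples were below the young ones. Relative to it, the old samples were above the young ones with no overlap for 6 members, Ush1c, Espn, Ush1g, Myo7a, Myo6 and Whrn. The same held for 65.2% of all genes, so that this count is near the background, and the median difference over all genes was 0.76. The relative level of Ush1c was 1.27, 1.75 and 1.50 in young and 2.76, 2.95 and 2.86 in old replicates, a difference of 1.35 (exact permutation p = 0.1, the smallest possible). For Espn the difference was 1.19, and for the other 4 it was between 0.57 and 0.78. The lowest of these, Whrn, was at 0.37 without young replicate 3.

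Clrn1, Eps8 and Adgrv1 overlapped between the ages on this relative scale. The relative level of Clrn1 was 0.996, 1.54 and 0.268 in young and 0.437, 0.653 and 0.338 in old replicates, a difference of -0.46 (exact permutation p = 0.4). Leaving out young replicate 2 gave -0.16, and leaving out young replicate 3 gave -0.79, where the old samples of Clrn1 lay below the remaining young ones. With all samples, 0 members lay below without overlap, against 0.443% of all genes. Eps8 had a difference of 0.40, which was 0.26 without old replicate 1. Adgrv1 had a difference of 0.36, which became 0.15 when young replicate 3 was left out and 0.64 when young replicate 2 was left out.

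**Figure D4:**
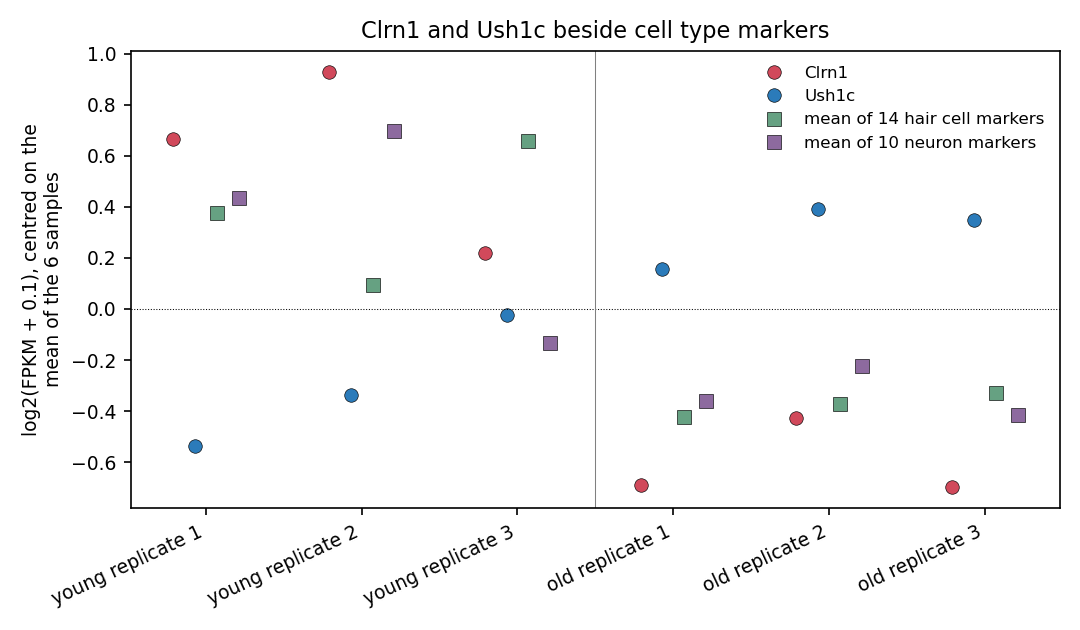
Level of Clrn1 and Ush1c in each sample beside the mean of 14 hair cell markers and of 10 neuron markers, as log2(FPKM + 0.1) centred on the mean of the 6 samples. Clrn1 and both marker means are lower in the old samples and Ush1c is higher; young replicate 3 has the lowest young Clrn1 and neuron level and the highest hair cell marker level.

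Lastly, the genes with the pattern most like that of each member over the 6 samples were sought among 71 genes of the stereocilia lists and the hair cell and supporting cell markers. The measure was the root mean square difference of the centred log2 levels. For Ush1c they were Otoa (0.12) and Tprn (0.16), and for Clrn1 Prox1 (0.13) and Cdh23 (0.24). Myo6 was nearest to Rdx (0.08) and Twf2 (0.10), Whrn to Myo6 (0.11) and Pls3 (0.13), and Espn to Pls1 (0.14) and Ezr (0.21). For Eps8 the nearest were Clic5 (0.18) and Whrn (0.18), for Adgrv1 Slc1a3 (0.09) and Sox2 (0.10), for Myo7a Tmie (0.13) and Msn (0.16), and for Ush1g Fgfr3 (0.15) and Capzb (0.16). Prox1, a supporting cell marker, measured 3.73, 5.19 and 2.84 FPKM in young and 1.69, 2.16 and 1.82 FPKM in old replicates (limma adjusted p = 0.0507). These likenesses describe 6 samples and carry no test.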

How the data were processed

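The authors made directional libraries from total RNA, sequenced 150 bp paired-end reads, filtered them and aligned them to GRCm38. Transcripts were assembled and quantified with Cufflinks (v2.1.1) and Cuffdiff (v2.1.1), and the submitters' processing notes also name TopHat2 2.0.9 and CASAVA 1.8. The deposited table holds FPKM per transcript and sample, as the authors computed it. Cuffdiff needs the reads, so limma was used here in its place.

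Transcripts were matched to GENCODE M21 and summed per gene. Of 56671 transcripts, 992 were the authors' own lncRNAs and 404 others were not matched, and these were kept as genes of their own. Old and young samples, grouped by their labels, were compared with limma 3.58.1 in R 4.3.3 (lmFit, then eBayes with trend) on log2(FPKM + 0.1), for features with a mean FPKM of at least 0.1. This pseudocount understates changes of low genes. P-values were two-sided and adjusted by the Benjamini-Hochberg method over all 19649 genes or all 38764 transcripts, with a threshold of 0.05. Relative levels and transcript shares were compared by an exact permutation test. The code was tested on simulated data.

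The depth estimate reduced transcript lengths by 280 to 300 nt, which placed 94.2 to 95.3% of low values within 0.1 of a whole fragment number, against 20% by chance. Fragment numbers cover counting error only. Each sample mixes tissue of 3 mice, so p-values measure the spread between such mixtures.

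The members and the gene lists were chosen with earlier results of these data known. Every member was named. Transcripts of a member with a mean of at least 0.5 FPKM could be named, and those shown were picked among them or among the shares compared. From the lists, genes past the threshold and up to 4 others by mean FPKM could be named. For likeness, genes with a mean of at least 1 FPKM were used. The transcripts Eps8-202 and Espn-202, the antisense gene 9330111N05Rik and Atoh1 fall outside these rules and were named after their values were seen. Alternatives were other pseudocounts, filters, scalings, variance models and sample weights, a block for the replicate number, the most abundant transcript in place of the sum, and each sample left out.

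Sequences were taken from the GENCODE M21 transcripts with positions in GRCm38. Tables were handled with pandas 2.3.3 and numpy 2.4.6 in Python 3.11.15, and plots were drawn with matplotlib 3.10.9.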

Additional observations from a re-analysis of the deposited data

How the results depend on the processing

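Of all genes, 1787 passed the threshold. The count was 307 with no filter on low values, 392 with no variance trend and 675 with the replicate block, and 1 to 1393 when single samples were left out, which leaves a group with 2 samples. It was 1393 without young replicate 3 and at most 369 without any other sample. Of the 9 members 2 passed. The count was 0 with no filter, 0 with no variance trend, 0 with the most abundant transcript, 1 with the replicate block (Clrn1, adjusted p = 0.0400, with Ush1c at 0.0547) and 0 to 2 with samples left out. It was 2 under the other settings tried. Of all transcripts 290 passed, 2 with the replicate block and 0 to 3 with samples left out. Transcripts of the members past the threshold numbered 0 under every setting run.

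The log2 changes of Ush1c (0.48 to 0.74), Clrn1 (-1.40 to -1.04), Myo6 (-0.22 to -0.11) and Whrn (-0.62 to -0.11) kept their direction under every setting. With the most abundant transcript, the direction turned for Adgrv1 (0.23), Espn (-0.14) and Eps8 (0.10). Ush1g turned with quantile normalization (-0.10) and with sample weights (-0.054), and Myo7a with a pseudocount of 1 (-0.0031) and with median of ratios scaling (-0.0040). With samples left out, Ush1g ranged from -0.18 to 0.23 and Myo7a from -0.22 to 0.23. Members whose level relative to the hair cell markers did not overlap between the ages numbered 6, with 6 to 8 when samples were left out and 5 to 8 over all settings. Transcript shares that did not overlap numbered 3, and 3 to 7 with samples left out, with 7 without old replicate 1. The relative level of Ush1c was 1.09 with a pseudocount of 1. The cause of these differences was not tested.

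Replicate numbers are shared between the ages only as numbers. The deviations of same-numbered samples from their group means had correlations of 0.022, -0.042 and 0.010, and not every sample was nearest to its own number. Low genes are limited by depth, with an estimated 17.9 to 32.1 fragments per sample for Ush1g and 29.1 to 75.5 for Adgrv1.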

Other observations

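When the search for the pattern most like that of Clrn1 was widened to 112 genes of all lists, a choice made after the values were seen, the nearest genes were neuron markers. They were Nefm (root mean square difference 0.12), Snap25 (0.12), Nefl (0.12) and Nefh (0.13), the neurofilament subunits and a synaptic vesicle fusion protein. Clrn1 was highest in young replicate 2 and lowest among the young samples in replicate 3, and the summed neuron markers were 1058 FPKM in young replicate 2, 845 FPKM in replicate 1 and 536 FPKM in replicate 3. The hair cell markers ran the other way among the young samples, at 153, 215 and 258 FPKM. The 7 Schwann cell and myelin markers summed to 1146, 1242 and 792 FPKM in young replicates 2, 1 and 3 and to 673 to 701 FPKM in old samples. What the neuron and Schwann cell content contributes to the level of Clrn1 was not tested.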
